A study of Homo sapiens with 16 samples.

Results

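LTBP1, LTBP2, LTBP3 and LTBP4 encode the latent TGF-beta binding proteins, and all 4 were taken as members by name, out of 20037 protein-coding genes of the RefSeq table for GRCh38. A peak was given to a member when its summit lay in the gene body or within 50 kb of it, which selected 328 of the 399028 peaks in the 10 peak lists, each peak for 1 member. The lists come from chromatin immunoprecipitation and sequencing in the established melanoma line A375, which is human. Cells without serum for 2 h were then given recombinant human TGFB1 at 10 ng/mL, or its vehicle of 4 mM HCl and 1 mg/mL BSA, and were collected 2 h later. SMAD2/3, H3K27ac, MITF, ATF3 and JUNB were each precipitated from TGFB1 cells and from vehicle cells. Each combination had 1 library, so the differences have no replicate check and no p-value was computed. The cultures are bulk, and more cells bound at a site cannot be told apart from more binding per cell.

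TGF-beta is secreted as a latent complex with its own propeptide, and LTBPs bind that propeptide covalently and anchor the complex in the extracellular matrix, where integrins and proteases release the ligand. LTBPs share their repeat structure with the fibrillins and lie on fibrillin microfibrils. LTBP1 and LTBP3 are the main carriers of the latent complex, LTBP4 binds it less well and is needed for elastic fibre assembly, and LTBP2 does not bind it and acts in microfibrils. SMAD2/3 are the transcription factors that the TGF-beta receptors phosphorylate, JUNB and ATF3 belong to the AP-1 superfamily, H3K27ac marks active promoters and enhancers, and MITF is the lineage factor of melanocytes.

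The start sites of the members differed in what was bound there, and the 4 promoter windows printed here are those that the results below turn on. They are RefSeq sequences of GRCh38.p14, 250 bases before to 50 bases after an annotated start, written 5′ to 3′ on the gene's own strand. Capitals mark the motifs searched, on both strands: the SMAD box CAGAC or GTCTG, the AP-1 site TGANTCA, the cyclic AMP element TGACGTCA, and the E-boxes CACGTG and CATGTG (or CACATG). LTBP1 promoter 1 lies at chr2:32946703-32947002 (plus strand) and serves the long form, LTBP1 promoter 3 at chr2:33134346-33134645 (plus strand) lies inside the gene at the start of the short form, LTBP2 promoter 1 lies at chr14:74612188-74612487 (minus strand), and LTBP3 promoter 1 at chr11:65558310-65558609 (minus strand).
LTBP1 promoter 1: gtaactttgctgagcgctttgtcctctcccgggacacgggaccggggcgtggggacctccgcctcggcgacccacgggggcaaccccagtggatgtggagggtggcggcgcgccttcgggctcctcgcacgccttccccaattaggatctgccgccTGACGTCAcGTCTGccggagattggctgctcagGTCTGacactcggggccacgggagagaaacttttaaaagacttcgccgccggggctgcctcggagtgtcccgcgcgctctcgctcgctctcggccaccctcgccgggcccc
LTBP1 promoter 3: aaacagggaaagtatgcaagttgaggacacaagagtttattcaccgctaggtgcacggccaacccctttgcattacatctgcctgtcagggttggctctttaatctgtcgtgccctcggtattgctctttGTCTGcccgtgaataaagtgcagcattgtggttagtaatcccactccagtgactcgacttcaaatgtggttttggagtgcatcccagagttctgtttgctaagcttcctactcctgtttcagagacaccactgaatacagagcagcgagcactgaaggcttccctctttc
LTBP2 promoter 1: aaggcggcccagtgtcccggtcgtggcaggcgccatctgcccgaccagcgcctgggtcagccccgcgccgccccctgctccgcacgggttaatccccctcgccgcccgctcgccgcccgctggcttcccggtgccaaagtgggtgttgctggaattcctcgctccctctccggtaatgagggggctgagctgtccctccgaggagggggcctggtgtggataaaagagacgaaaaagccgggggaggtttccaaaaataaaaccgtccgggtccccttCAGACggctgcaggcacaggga
LTBP3 promoter 1: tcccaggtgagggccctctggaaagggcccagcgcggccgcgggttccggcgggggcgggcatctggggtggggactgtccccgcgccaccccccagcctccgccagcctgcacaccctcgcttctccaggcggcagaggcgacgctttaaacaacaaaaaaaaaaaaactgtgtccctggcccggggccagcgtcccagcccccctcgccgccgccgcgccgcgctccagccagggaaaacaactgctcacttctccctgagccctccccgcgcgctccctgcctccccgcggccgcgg

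LTBP1 promoter 1 holds 1 cyclic AMP element and 2 SMAD boxes, LTBP1 promoter 3 and LTBP2 promoter 1 hold 1 SMAD box each, and LTBP3 promoter 1 holds no motif searched. Of all 22199 RefSeq promoter windows, 44.8% hold a SMAD box, 6.15% the AP-1 site, 2.26% the cyclic AMP element, 8.34% CACGTG and 8.93% CATGTG or CACATG. No AP-1 site or E-box of these spellings stands in any of the 8 promoter windows annotated for the members. LTBP1 promoter 1 and LTBP2 promoter 1 were acetylated in TGFB1 and in vehicle cells and overlapped no SMAD2/3, ATF3, JUNB or MITF peak. LTBP1 promoter 3 had SMAD2/3, ATF3 and JUNB in TGFB1 cells and JUNB in vehicle cells, without H3K27ac inside the window in either. Just past that window stood a shared H3K27ac peak, with 18 reads with TGFB1 and 16 with vehicle. Its summit lay 259 bp after the start with TGFB1 and 265 bp with vehicle. LTBP3 promoter 1 had SMAD2/3, JUNB and H3K27ac in TGFB1 cells and H3K27ac in vehicle cells. Of all promoter windows, 7.33% overlapped a SMAD2/3 peak with TGFB1 and 0.302% with vehicle, 61.2% and 61.0% overlapped H3K27ac with TGFB1 and with vehicle, and 19.2% and 7.72% overlapped JUNB. For ATF3 the shares were 12.4% with TGFB1 and 4.08% with vehicle, and for MITF 6.76% and 7.58%, so most promoters lack both.

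The values of a peak are the authors' own: a fold enrichment over local background and a -log10 p at the summit, used here within each list, and the strongest peak is the one with the highest -log10 p. The number of reads piled up at the summit was solved from both and was whole, to within 0.01 reads, for at least 99.88% of the peaks of each list. The TGFB1 list was longer than the vehicle list for SMAD2/3 (11406 and 1247 peaks), ATF3 (62997 and 49563) and JUNB (64407 and 38514), about as long for H3K27ac (80990 and 79172), and shorter for MITF (5037 and 5695). The lowest recovered background moves with read number and fragment extension. As a ratio of TGFB1 over vehicle it was 0.639 for SMAD2/3, 1.08 for H3K27ac, 0.972 for MITF, 4.53 for ATF3 and 1.39 for JUNB. The shortest SMAD2/3 peak measured 183 bp with TGFB1 and 311 bp with vehicle. In the other pairs the shortest peaks were alike (H3K27ac 171 and 171 bp, MITF 180 and 185, ATF3 153 and 149, JUNB 144 and 145). The SMAD2/3 ratio therefore cannot be read as a difference in read number alone. Each pair shared the date in its sample titles, which do not say what step it dates. Antibody and that date cannot be told apart between most antibodies. An H3K27ac peak stood within 1 kb of a gene end at 5 of 7 melanoma and neural crest genes with TGFB1 and at 4 of 7 with vehicle (MITF, SOX10, PMEL and S100B in both, MLANA with TGFB1), and TYR and DCT, defining pigment genes, had none. Of the markers of other cell types, CD3E (1 of 4 leukocyte genes) and PDGFRB (1 of 3 fibroblast genes) had such a peak in both treatments, and none of the 2 endothelial or 3 epithelial genes had one. The share of all genes with such a peak was not computed. Of all promoter windows, which are narrower, 61.2% overlapped H3K27ac with TGFB1 and 61.0% with vehicle. The marker counts are therefore a description and do not establish cell identity.

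SMAD2/3 was found at all 4 members with TGFB1, at 21 peaks, and at 1 peak with vehicle. LTBP3 had 11 of the TGFB1 peaks, LTBP1 had 5, LTBP2 had 4 and LTBP4 had 1. When both lists were kept to the 1247 strongest peaks, the length of the vehicle list, 3 peaks were left with TGFB1, all at LTBP2, and 1 with vehicle, at LTBP3, so the presence of SMAD2/3 at LTBP1, LTBP3 and LTBP4 rests on the weaker peaks of the longer list. Of all protein-coding genes, 47.7% had a SMAD2/3 peak in the same window with TGFB1 and 3.84% with vehicle. Without the site of high background upstream of LTBP1 that is described below, the TGFB1 count was 20. As many as 11 peaks were found at 0.11% of genes, as many as 5 at 3.15% and as many as 4 at 6.0%. By length of sequence, the member windows held 2.05 SMAD2/3 peaks per 100 kb with TGFB1 and 0.0977 with vehicle, and the windows of all protein-coding genes held 0.581 with TGFB1 and 0.0291 with vehicle. The TGFB1 density was 9.18 at LTBP3, 1.87 at LTBP2, 0.905 at LTBP1 and 0.732 at LTBP4, and the pooled value without LTBP3 was 1.11. All 21 TGFB1 peaks overlapped no vehicle peak (100%, 95% Wilson interval 84.5 to 100), where 94.3% of the whole SMAD2/3 TGFB1 list did. That share at the members is close to the background, and the interval covers counting error of peaks alone. The 1 vehicle peak overlapped no TGFB1 peak, as did 49.9% of the vehicle list.

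The 21 sites differed widely in strength. The order by the strongest SMAD2/3 peak was LTBP2, LTBP3, LTBP1 and LTBP4: a peak as strong as LTBP2's by -log10 p was found at 0.459% of genes, as strong as LTBP3's at 9.94%, as LTBP1's at 11.8% and as LTBP4's at 34.8%. LTBP2's strongest peak had 89 reads at the summit (exact 95% Poisson interval 71.5 to 110), LTBP3's 30 (20.2 to 42.8), LTBP1's 21 (13.0 to 32.1) and LTBP4's 13 (6.92 to 22.2). Of these, the LTBP2 value lay clear of the rest, and the intervals of LTBP3, LTBP1 and LTBP4 overlapped. The lowest pileup called in the vehicle list was 8 reads.

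**Figure D1:**
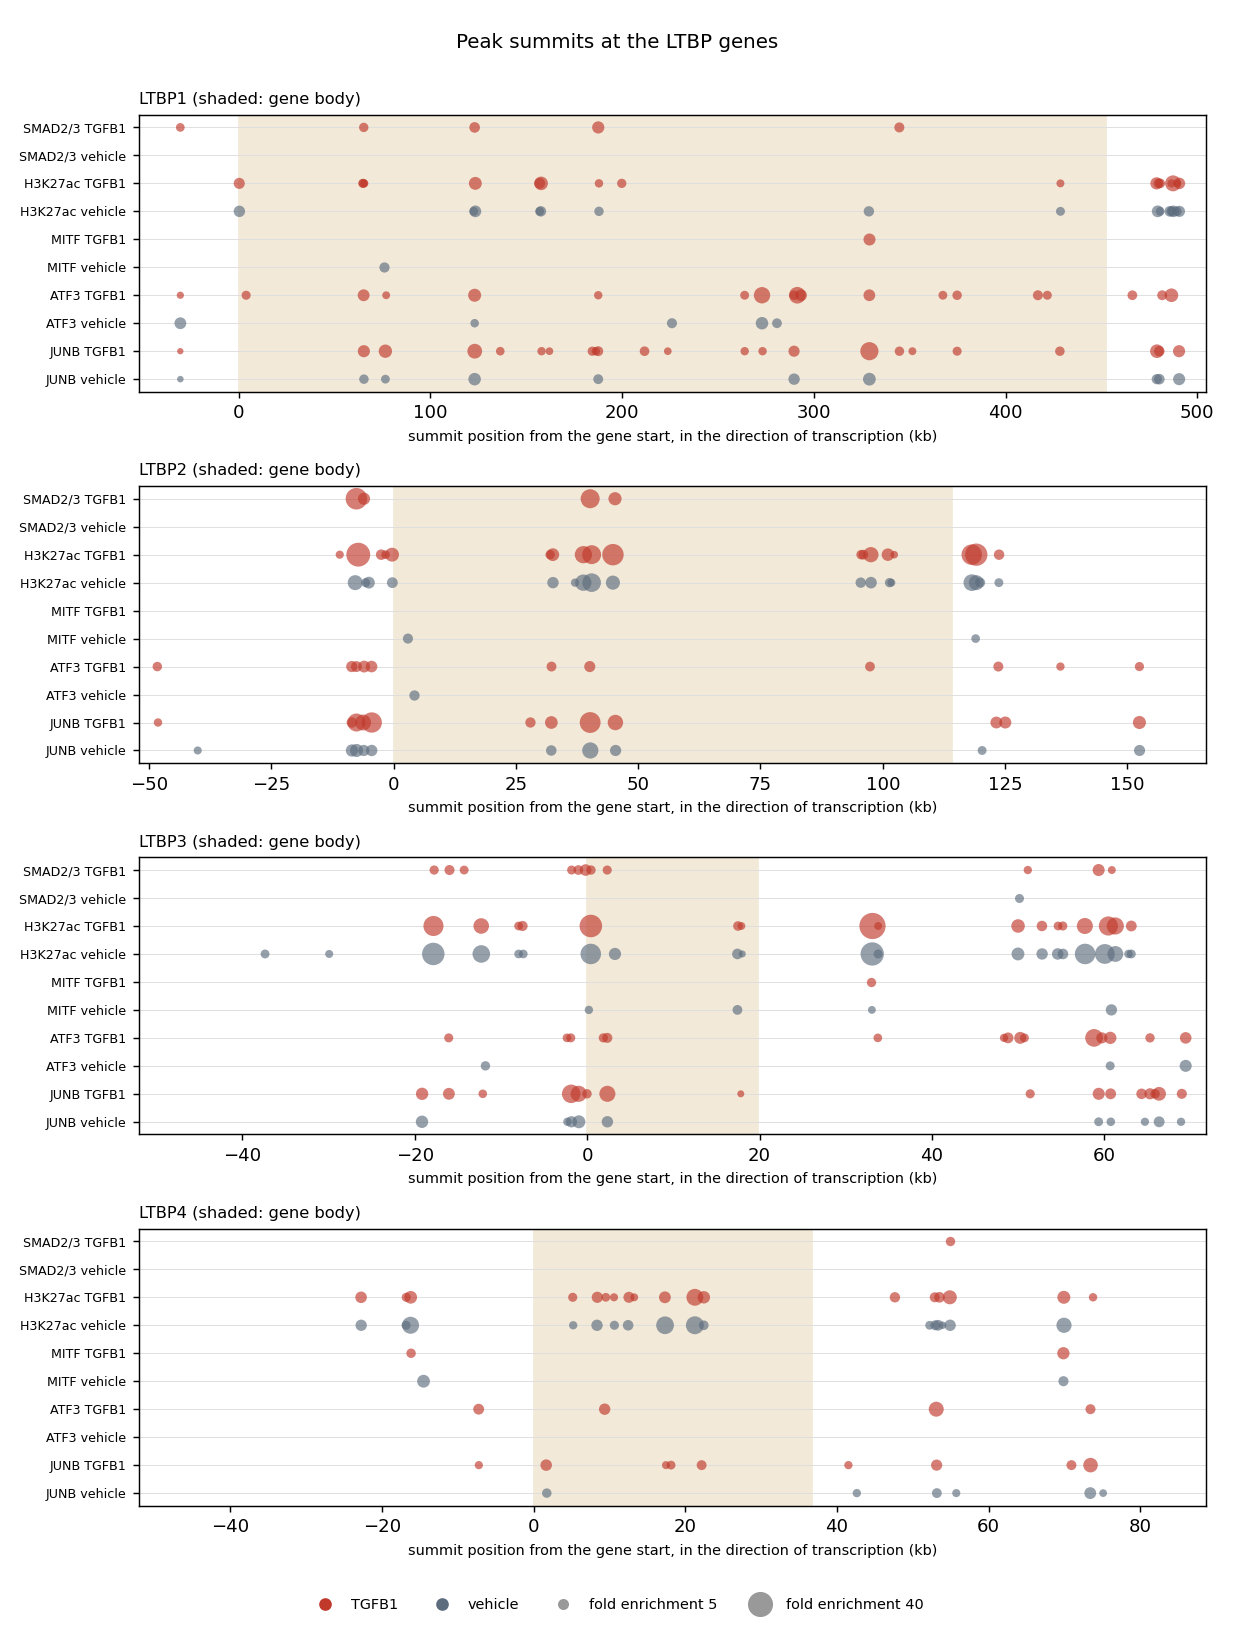
Summit positions of the 328 peaks along each gene in kb from its annotated start, with 1 row per list, TGFB1 (red) above vehicle (grey), and marker area growing with the fold enrichment in that list. SMAD2/3 rows are filled with TGFB1 and nearly empty with vehicle (21 and 1 peaks), and LTBP2 carries the largest SMAD2/3 markers, upstream of the gene and about 40.2 kb inside it.

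**Figure D2:**
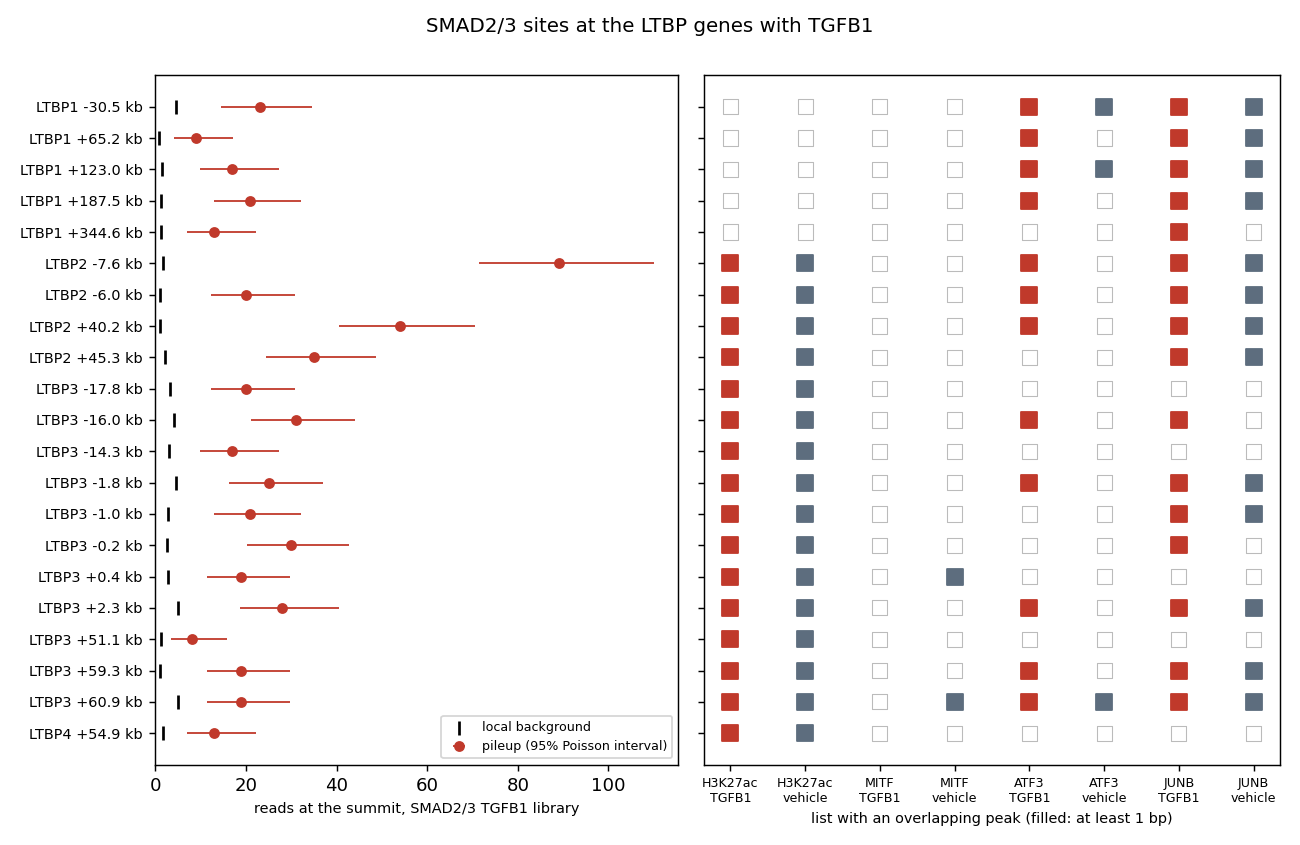
Left, reads at the summit of the 21 SMAD2/3 peaks in the TGFB1 library with exact 95% Poisson intervals and the local background as a bar; right, filled squares mark a peak of another list that shares at least 1 bp. LTBP2 at 7.58 kb upstream reaches 89 reads, and the H3K27ac squares are filled at every LTBP2, LTBP3 and LTBP4 site and empty at the 5 LTBP1 sites.

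LTBP2 had the strongest SMAD2/3 peak of the 4 genes and, among peaks with recoverable pileups, the highest H3K27ac ratio of TGFB1 over vehicle. It lies on the minus strand at chr14:74498183-74612237, a gene body of 114 kb. Its strongest SMAD2/3 peak, at chr14:74619336-74620249, lay 7.58 kb upstream of the start with a fold enrichment of 34.1, 89 reads over a background of 1.64, and stood in the top 0.465% of the TGFB1 list. A second upstream peak, at chr14:74618094-74618531, lay 6.03 kb before the start with a fold enrichment of 9.85 and 20 reads. Both upstream peaks are outside any annotated gene and nearest to LTBP2.

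Inside the LTBP2 gene, a peak at chr14:74571853-74572429 reached a fold enrichment of 26.2 with 54 reads (40.6 to 70.5), in the top 1.45% of the list. The other body peak, at chr14:74566620-74567316, had a fold enrichment of 11.8 and 35 reads (24.4 to 48.7). They lay 40.2 and 45.3 kb into the gene, and the gene table used here has no exons, so exon or intron was not assigned. In vehicle cells no SMAD2/3 peak was called at any of the 4 sites.

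All 4 LTBP2 sites were acetylated and carried JUNB in vehicle cells too. H3K27ac and JUNB overlapped each of them in TGFB1 and in vehicle cells, and ATF3 overlapped 3 of them in TGFB1 cells and 0 in vehicle cells. MITF overlapped none in either treatment. What differed was the height and width of the marks. Upstream of LTBP2, H3K27ac with TGFB1 formed 1 peak of 6887 bp at chr14:74615215-74622101 with 162 reads at its summit. With vehicle the same stretch held 3 peaks, of which the strongest, chr14:74618321-74620476, measured 2156 bp with 47 reads, and the other two had 34 and 13 reads.

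The summit pileup ratio there was 3.45, TGFB1 over vehicle (exact 95% interval 2.48 to 4.88, counting error only). Across all 62501 H3K27ac peaks called in both treatments with recoverable pileups, the median ratio was 1.13, and 0.278% had a ratio as high. The LTBP2 promoter peak had 55 reads with TGFB1 and 23 with vehicle, a ratio of 2.39 (1.45 to 4.08) that 1.65% of shared peaks reached. Both were at least 2 times the list median. Such ratios were found at 2 of the 54 shared H3K27ac peaks at the members and at 2.19% of all shared peaks. At 1.5 times the median the counts were 8 of 54 (14.8%) at the members and 8.45% in the list. The H3K27ac peaks over the body sites had 162, 122 and 160 reads with TGFB1, against 89, 80 and 88 reads with vehicle, ratios of 1.82, 1.52 and 1.82.

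Away from the SMAD2/3 sites and the promoter, the 8 other shared LTBP2 acetylation peaks had ratios from 0.484 to 1.65. The 2 tallest of them, at NPC2 and ISCA2, the genes downstream, had 138 and 132 reads with TGFB1 and 115 and 110 with vehicle, both a ratio of 1.2. One body peak had the lowest ratio of the gene, 0.484, from 15 reads with TGFB1 and 31 with vehicle, where 2 TGFB1 peaks faced a single wider vehicle peak. The median over the 13 shared LTBP2 peaks was 1.52, against 1.3 over 12 at LTBP1, 1.11 over 15 at LTBP3 and 1.13 over 14 at LTBP4. H3K27ac peaks covered 25.8 kb of the LTBP2 window with TGFB1 and 16.1 kb with vehicle, with 18 and 17 peaks. Of these, 5 were TGFB1-only and 0 vehicle-only, the strongest TGFB1-only peak lying 2.52 kb before the start (chr14:74614371-74615038, 23 reads).

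JUNB ratios at LTBP2 lay above the list median at the 4 SMAD2/3 sites and at 1 of the 4 other shared peaks. Its strongest peak lay on the SMAD2/3 site 40.2 kb into the gene, with 127 reads at chr14:74571515-74572454 in TGFB1 cells and 54 reads at chr14:74571749-74572407 in vehicle cells. At the strongest SMAD2/3 site upstream, JUNB had 102 reads with TGFB1 and 45 with vehicle, and at the site 6.03 kb upstream 68 and 23. The ratios at the 4 SMAD2/3 sites were 2.35, 2.27, 2.96 and 3.0, where the JUNB list median was 1.7. The other 4 shared JUNB peaks had ratios of 2.52, 1.5, 1.43 and 1.37. Away from SMAD2/3, the strongest TGFB1-only JUNB peak was at NPC2 (chr14:74487098-74487324, 40 reads) and the strongest vehicle-only one as well (chr14:74491824-74491976, 12 reads).

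ATF3 at LTBP2 had 11 peaks with TGFB1 and 1 with vehicle, and MITF had 0 with TGFB1 and 2 with vehicle. The strongest ATF3 peak with TGFB1 lay upstream beside the SMAD2/3 site, at chr14:74620669-74621022 with 32 reads, and 4 of the 11 were in that upstream cluster, 4.49 to 8.54 kb before the start. The vehicle ATF3 peak, chr14:74607928-74608080, had 8 reads and lay 4.21 kb into the gene. MITF in vehicle cells lay 2.95 kb into the gene (chr14:74609182-74609369, 9 reads) and at NPC2 (10 reads).

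LTBP1 had 5 SMAD2/3 sites, 4 of them spread over its 453 kb gene (chr2:32946953-33399509, plus strand) and the other upstream of it. All 5 were weaker than the best sites of LTBP2. The strongest, chr2:33134289-33134609, sat over the internal promoters of the short form, its summit 100 bp after the start of promoter 2, with a fold enrichment of 10.0 and 21 reads over 1.20. The others were chr2:33069904-33070160 with 17 reads, chr2:33291423-33291692 with 13 reads and chr2:33012092-33012274 with 9 reads, all in the gene body, and chr2:32916294-32916542 with 23 reads over a higher background of 4.51, 30.5 kb upstream. In rank they stood in the top 18.1 to 77.9% of the SMAD2/3 list.

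The AP-1 factors shared these sites while acetylation did not. JUNB overlapped all 5 with TGFB1 and 4 with vehicle, and ATF3 overlapped 4 with TGFB1 and 2 with vehicle. The counts of both factors, in both treatments, include the site 30.5 kb upstream, whose high background is described below. H3K27ac overlapped 0 of the 5 in either treatment, where 75.7% of all SMAD2/3 peaks overlapped H3K27ac of TGFB1 cells and 69.5% that of vehicle cells. Within a margin of 500 bp, 3 of the 5 had an H3K27ac peak with TGFB1 and 2 with vehicle, where 85.9% and 81.2% of all SMAD2/3 peaks had one. At chr2:33012092-33012274 TGFB1-only H3K27ac peaks stood on both sides, chr2:33011859-33012080 with 14 reads and chr2:33012313-33012580 with 9 reads, and the vehicle list had none there.

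JUNB was the most frequent factor at LTBP1, with 23 peaks with TGFB1 and 10 with vehicle. All 10 vehicle peaks were shared and 13 of the TGFB1 peaks were TGFB1-only, the strongest of these at the SMAD2/3 site 344.6 kb into the gene (chr2:33291475-33291670, 28 reads). The strongest JUNB peak, 329 kb into the gene, had 148 reads at chr2:33275712-33276059 with TGFB1 and 55 reads at chr2:33275791-33276025 with vehicle, a ratio of 2.69 that 9.35% of shared JUNB peaks reached. MITF had a TGFB1-only peak at the same place (chr2:33275792-33276039, 16 reads), and H3K27ac had a vehicle-only peak there (chr2:33275499-33275836, 15 reads). SMAD2/3 had no peak there in either treatment. The one vehicle MITF peak of LTBP1, chr2:33022720-33022904, had 10 reads.

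ATF3 at LTBP1 had 19 peaks with TGFB1 and 5 with vehicle. The strongest with TGFB1, chr2:33238206-33238459, had 51 reads and no vehicle peak, and the strongest vehicle-only peak, chr2:33172874-33173025, had 8 reads. The strongest ATF3 peak of LTBP1 in vehicle cells lay at the site 30.5 kb upstream, where ATF3 had 145 reads with TGFB1 and 141 with vehicle over recovered backgrounds of 56.9 and 14.5, and JUNB had 144 and 138 reads over 90.5 and 75.6. The next highest background of these factors at LTBP1 was 7.21 reads. Without the site, ATF3 had 18 peaks with TGFB1 and 4 with vehicle at LTBP1, JUNB had 22 and 9, and SMAD2/3 had 4 and 0. H3K27ac was strongest beyond the gene's end, 2.04 kb from RASGRP3, with 46 reads with TGFB1 (chr2:33433912-33434837) and 40 with vehicle (chr2:33433909-33434825). At the long-form promoter it had 59 reads with TGFB1 and 41 with vehicle, a ratio of 1.44 (0.95 to 2.2). The strongest TGFB1-only H3K27ac peak (chr2:33425256-33425852, 33 reads) and the strongest vehicle-only one (chr2:33432465-33432798, 16 reads) were both nearest to RASGRP3.

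LTBP3 is the shortest of the 4 genes (19.8 kb, chr11:65538559-65558359, minus strand) and had the most SMAD2/3 peaks, in a window shared with 6 other protein-coding genes and the long noncoding RNA MALAT1. Of its 11 peaks, 5 were nearest to LTBP3 and formed a row across its start. The strongest of these, chr11:65558229-65558713, covered the promoter with a fold enrichment of 8.92 and 30 reads (20.2 to 42.8). On either side lay chr11:65555737-65556253 with 28 reads and chr11:65557783-65558058 with 19 reads inside the gene, and chr11:65559084-65559503 with 21 reads and chr11:65560039-65560779 with 25 reads upstream. Such closely set peaks share 1 stretch of chromatin and are not independent sites.

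The other 6 LTBP3 peaks lay at neighbours. At FAM89B were chr11:65572510-65572884 (17 reads) and chr11:65574129-65574763 (31 reads), and in EHBP1L1 was chr11:65575717-65576209 (20 reads). Near or in MALAT1 and its antisense transcript TALAM1 were chr11:65497481-65497893 (19 reads), chr11:65498923-65499125 (19 reads) and chr11:65507144-65507326 (8 reads). The single vehicle SMAD2/3 peak of all the windows, chr11:65507978-65508288, also lay there, with 12 reads and a fold enrichment of 4.73, and overlapped no TGFB1 peak.

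The LTBP3 sites were acetylated in both treatments. H3K27ac overlapped all 11 with TGFB1 and with vehicle. Over the promoter it formed a peak of 8358 bp with TGFB1 (chr11:65554043-65562400, fold enrichment 37.4) and peaks of 5637 and 1902 bp with vehicle (the stronger chr11:65556096-65561732, fold enrichment 30.7). The pileup of the TGFB1 peak could not be recovered, since its -log10 p of 343 was beyond the range solved, so the 5 SMAD2/3 sites under it have no acetylation ratio. The 3 other H3K27ac peaks on SMAD2/3 had ratios of 1.18, 1.68 (1.06 to 2.71) and 1.11. In all, acetylation covered 33.1 kb with TGFB1 and 32.5 kb with vehicle in 17 and 21 peaks, with 0 TGFB1-only peaks and 2 vehicle-only peaks, the stronger nearest to KCNK7 (chr11:65595460-65595921, 19 reads).

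JUNB overlapped 7 of the 11 with TGFB1 and 5 with vehicle, and ATF3 overlapped 5 with TGFB1 and 1 with vehicle. The strongest JUNB peak of LTBP3 lay 1.86 kb upstream of the start, on a SMAD2/3 peak, with 150 reads with TGFB1 (chr11:65560056-65560851) and 65 with vehicle (chr11:65560061-65560399), a ratio of 2.31 (1.71 to 3.14). The strongest TGFB1-only JUNB peak, at FAM89B (chr11:65574176-65574525, 45 reads), lay on a SMAD2/3 peak too. ATF3 was strongest with TGFB1 inside MALAT1 (chr11:65499410-65499685, 74 reads, TGFB1-only) and with vehicle at chr11:65488791-65489050 (15 reads), and its 1 vehicle-only peak lay at ZNRD2 (chr11:65570102-65570261, 9 reads).

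MITF had 1 peak in the LTBP3 window with TGFB1 and 4 with vehicle. Of the vehicle peaks 3 were vehicle-only: chr11:65497444-65497684 beside MALAT1 with 17 reads, chr11:65558021-65558213 at the LTBP3 start with 9 reads, and chr11:65540878-65541064 near the gene's end with 8 reads. The peaks beside MALAT1 and at the LTBP3 start overlapped SMAD2/3 peaks of the TGFB1 list. The lowest pileup called in the MITF lists was 5 reads in each treatment, so the peaks of 8 and 9 reads are close to that limit.

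LTBP4 had the least SMAD2/3 of the 4 genes. Its gene spans 36.7 kb at chr19:40593166-40629820 on the plus strand. Its 1 peak, chr19:40647895-40648218, lay beyond the gene's end and nearest to NUMBL, with a fold enrichment of 5.3 and 13 reads, in the top 66.1% of the list. H3K27ac overlapped it in both treatments, with 58 reads with TGFB1 and 62 with vehicle, and JUNB, ATF3 and MITF did not. No SMAD2/3 peak lay in the LTBP4 body.

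The LTBP4 body was acetylated in both treatments. The strongest peak, 21.3 kb into the gene, had 153 reads with TGFB1 (chr19:40613135-40615252) and 129 with vehicle (chr19:40613074-40615177), a ratio of 1.19 (0.932 to 1.51). Of the 2 annotated promoters, the upstream one overlapped no peak of any list, and the other was acetylated in both treatments, with 53 reads with TGFB1 and 54 with vehicle. H3K27ac had 4 TGFB1-only peaks (the strongest chr19:40640673-40640970, 17 reads) and 2 vehicle-only peaks (the stronger chr19:40645346-40645538, 11 reads).

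By length, the LTBP4 window held 6.59 JUNB peaks per 100 kb with TGFB1 and 4.39 with vehicle. The windows of all protein-coding genes held 3.01 and 1.73. At equal list lengths the LTBP4 window held 6 JUNB peaks in each treatment. In the full lists the gene body held 4 with TGFB1 and 1 with vehicle. JUNB had 9 peaks with TGFB1 and 6 with vehicle, the strongest near NUMBL with 70 reads with TGFB1 (chr19:40666377-40666747) and 32 with vehicle (chr19:40666460-40666669). The strongest TGFB1-only JUNB peak, chr19:40663958-40664191, had 41 reads, and the strongest vehicle-only one, chr19:40648776-40648920, had 13. ATF3 had 4 peaks with TGFB1, the strongest chr19:40646112-40646464 with 45 reads, and 0 with vehicle. MITF had 2 in each treatment, 1.46 per 100 kb against 0.357 with TGFB1 and 0.383 with vehicle in all windows: at NUMBL 17 reads with TGFB1 (chr19:40662890-40663123) and 12 with vehicle, and at SHKBP1 a TGFB1-only peak of 7 reads (chr19:40576852-40577032) and a vehicle-only peak of 18 reads (chr19:40578573-40578837).

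**Figure D3:**
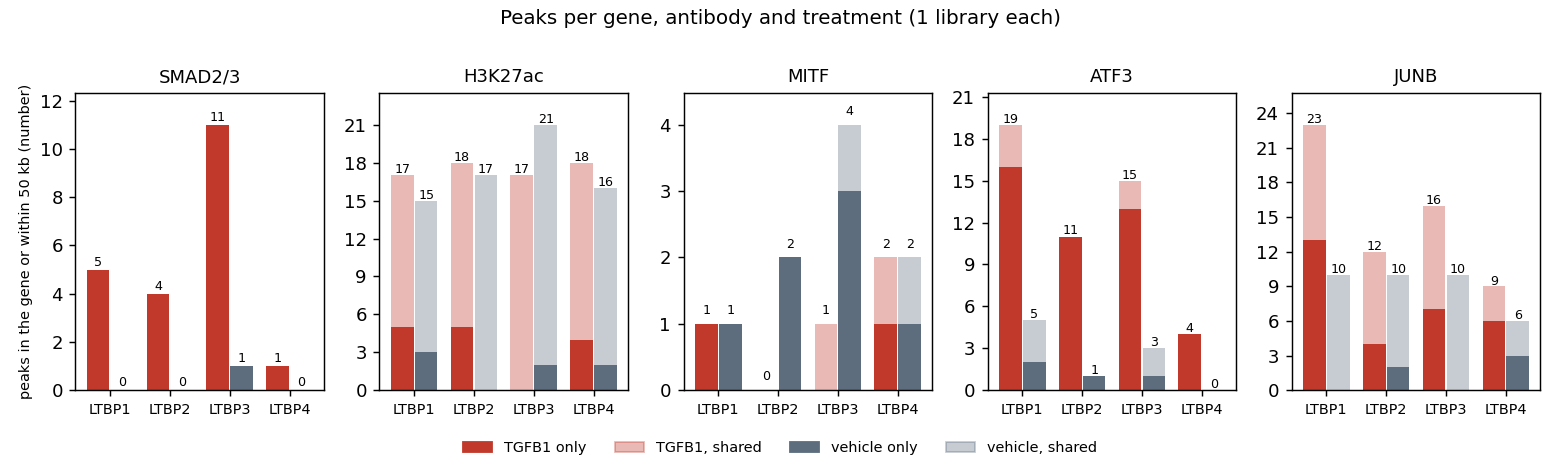
Number of peaks at each gene by antibody (panels), with TGFB1 bars (red) left of vehicle bars (grey); dark parts are peaks that overlap none of the other treatment and pale parts are shared. SMAD2/3 bars are dark throughout, H3K27ac bars mostly pale, and ATF3 at LTBP1 reaches 19 with TGFB1 and 5 with vehicle.

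Each member had H3K27ac, ATF3 and JUNB peaks with TGFB1, as did 91.1%, 91.8% and 90.8% of all protein-coding genes. With vehicle all 4 had H3K27ac and JUNB, as did 91.0% and 82.0% of genes, and 3 of 4 had ATF3 (76.7%). MITF was at 3 of 4 members with TGFB1 (38.3% of genes) and at 4 of 4 with vehicle (39.7%). The lists differed in how many peaks were found in 1 treatment. For H3K27ac, 14 of 70 TGFB1 peaks were TGFB1-only (interval of the share 12.3 to 30.8%), where 21.8% of the whole list was, and 7 of 69 vehicle peaks were vehicle-only (10.1%, 5.0 to 19.5), where 16.8% was. For JUNB, 30 of 60 TGFB1 peaks were TGFB1-only (50.0%, 37.7 to 62.3; list 58.2%) and 5 of 36 vehicle peaks were vehicle-only (13.9%, 6.08 to 28.7; list 29.2%). The backgrounds lay inside the intervals, except that of vehicle-only JUNB, 29.2%, which lay just above the interval of 6.08 to 28.7.

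ATF3 had 49 peaks at the members with TGFB1 and 9 with vehicle. Of the TGFB1 peaks 44 were TGFB1-only (89.8%, 78.2 to 95.6; list 77.2%), and of the vehicle peaks 4 were vehicle-only (44.4%, 18.9 to 73.3; list 71.1%). The list share of 77.2% lay just below the interval of 78.2 to 95.6, and that of 71.1% lay inside its interval. The lowest recovered background was 4.53 times as high with TGFB1 as with vehicle for ATF3. Without the site upstream of LTBP1 the TGFB1-only share was 91.7%. At equal list lengths it was 88.6%, but the share of the whole list at equal lengths was not computed. Equal list lengths also do not equalise depth. MITF had 4 peaks with TGFB1, 2 of them TGFB1-only (50.0%, 15.0 to 85.0; list 45.6%), and 9 with vehicle, 7 of them vehicle-only (77.8%, 45.3 to 93.7; list 52.6%).

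Set against all 11406 SMAD2/3 peaks, the 21 at the members carried these partners. JUNB of TGFB1 cells overlapped 16 of 21 (76.2%, 54.9 to 89.4; all SMAD2/3 peaks 62.0%) and that of vehicle cells 13 (61.9%, 40.9 to 79.2; 48.0%). H3K27ac overlapped 16 of 21 in TGFB1 and in vehicle cells (76.2% each; 75.7% and 69.5%). ATF3 overlapped 12 with TGFB1 (57.1%, 36.5 to 75.5; 45.9%) and 3 with vehicle (14.3%, 4.98 to 34.6; 18.6%). MITF overlapped 0 with TGFB1, which allows a share of up to 14.3% (3 counts of 21; the Wilson upper bound is 15.5%), where 11.9% of all SMAD2/3 peaks did, and 2 with vehicle (9.52%; 13.0%). Each share over all SMAD2/3 peaks lies within the interval or limit of the members' share.

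Of the 14 TGFB1-only H3K27ac peaks at the members 0 overlapped SMAD2/3, and 3.13% of the 17650 in the list did, so that 0 of 14 does not stand apart from the list. Among shared peaks, 9 of 56 overlapped SMAD2/3 (12.9% in the list). For JUNB, 13 of 30 shared TGFB1 peaks overlapped SMAD2/3 (19.6% in the list) and 3 of 30 TGFB1-only peaks did (4.73%).

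**Figure D4:**
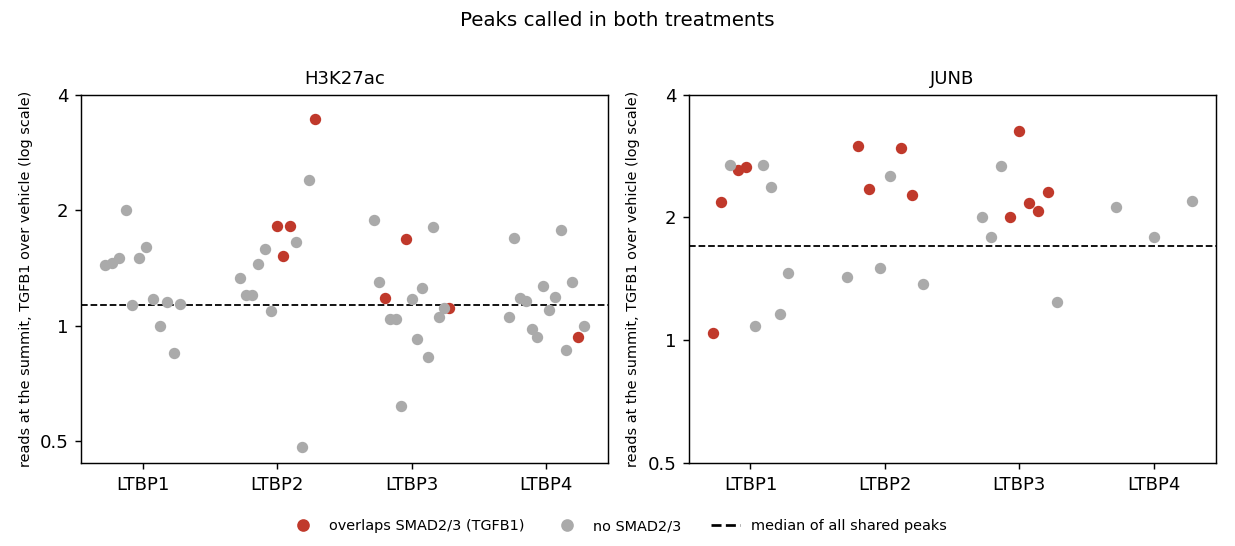
Reads at the summit with TGFB1 over reads with vehicle (log axis) for every H3K27ac peak (left) and JUNB peak (right) called in both treatments with recoverable pileups, by gene; red points overlap a SMAD2/3 peak of TGFB1 cells, and the dashed line is the median of all shared peaks in the list (1.13 and 1.7). The LTBP2 upstream peak stands highest for H3K27ac at 3.45, and 12 of 13 red JUNB points lie above the dashed line.

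Where JUNB and SMAD2/3 coincided at the members, JUNB pileups were higher with TGFB1 by more than the list median at 12 of 13 shared peaks, with ratios from 1.04 to 3.25 and a median of 2.31 (2.33 without the site 30.5 kb upstream of LTBP1). Across the list, 57.0% of the 5274 shared JUNB peaks on SMAD2/3 lay above the list median, and their own median ratio was 1.79. JUNB peaks at the members without SMAD2/3 had a median ratio of 1.79, with 10 of 17 above the list median, where 48.3% of such peaks in the list were. A ratio of at least 2 times the list median was reached by 0 of the 30 at the members (interval of the share 0 to 11.4%). The 2.52% of all shared JUNB peaks that reached it lies inside that interval. At 1.5 times the median there were 8 of 30 (26.7%, 14.2 to 44.4) at the members and 11.9% in the list.

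Among recoverable pileups, the highest acetylation ratio on a SMAD2/3 site was at LTBP2, and the LTBP3 promoter peak, over 5 SMAD2/3 sites, has no ratio. The 8 shared acetylated peaks on SMAD2/3 had a median ratio of 1.6, and 6 of them lay above the list median. In the list, 67.3% of the 7748 on SMAD2/3 lay above it with a median of 1.23, and 7.28% were at least 2 times the list median. The 46 without SMAD2/3 had a median of 1.17, and those in the list 1.11. Of the 8, 4 were at LTBP2, with ratios of 1.52 to 3.45, 3 at LTBP3, with 1.11 to 1.68, and 1 at LTBP4, with 0.935.

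Genes of the same pathway were counted within 10 kb of the gene body. Of 18 genes for latent TGF-beta storage and activation, 12 had a SMAD2/3 peak with TGFB1, where 28.1% of protein-coding genes did, and 2 with vehicle (MMP2 and TGFB1), where 1.77% did. The strongest were at MMP2, a gelatinase of the matrix (fold enrichment 20.8, 88 reads), TGFB2, a ligand of the family (22.9, 50 reads), ITGB6, a subunit of the integrin that activates latent TGF-beta in epithelia (16.7, 43 reads), TGFB1, the ligand itself (12.8, 39 reads), and ITGB3, another integrin subunit (12.7, 28 reads). All 5 of these peaks were TGFB1-only. TGFB1-only H3K27ac peaks lay at 14 of 18 (31.4% of all genes) and vehicle-only ones at 9 of 18 (30.5%). At a -log10 q of at least 5 these counts were 9 (19.0% of all genes) and 8 (15.7%).

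Other factors at the storage and activation genes were JUNB, at 16 with TGFB1 (72.3% of all genes) and 14 with vehicle (55.8%), ATF3, at 14 with TGFB1 (69.9%) and 13 with vehicle (48.6%), and MITF, at 4 in each treatment (21.6% with TGFB1 and 23.2% with vehicle). Both lists were chosen with earlier results of these data known, so their counts are descriptions, and gene length was not matched.

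Of 16 genes for microfibrils and elastic fibres, the structures in which LTBPs lie, 6 had a SMAD2/3 peak within 10 kb with TGFB1 (28.1% of all genes) and 0 with vehicle (1.77%). They were led by LOXL1, which crosslinks elastin (fold enrichment 9.62, 52 reads), MFAP2, a microfibril glycoprotein (7.24, 27 reads), FBN3, a fibrillin (5.94, 22 reads), FBLN2, a fibulin (6.26, 17 reads), and ELN, elastin itself (5.49, 18 reads). The fibrillin genes FBN1 and FBN2 had none. TGFB1-only H3K27ac lay at 9 of the 16 (31.4% of all genes) and vehicle-only H3K27ac at 2 (30.5%). JUNB lay at all 16 with TGFB1 (72.3%) and at 12 with vehicle (55.8%), ATF3 at 14 with TGFB1 (69.9%) and 10 with vehicle (48.6%), and MITF at 3 in each treatment (21.6% with TGFB1 and 23.2% with vehicle).

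The genes most like each member were taken by the percentile of their strongest peak among protein-coding genes in each of the 10 lists, as the Euclidean distance over those 10 percentiles. LTBP1 was nearest to CHN2 (distance 24.4), PTPRB (24.9) and PTPRR (27.5). Its strongest ATF3 peak in vehicle cells, which enters these distances, is the upstream site of high background. Its strongest H3K27ac peaks in both treatments lie nearest to RASGRP3. LTBP2 was nearest to HCRTR1 (25.6), SNED1 (27.1) and TINAGL1 (31.0). LTBP3 was nearest to GTF2IRD2B (20.5), SERTAD4 (20.6) and SNX6 (27.7), and LTBP4 to RAB11A (22.0), CEP164 (24.9) and ZW10 (27.9). The only SMAD2/3 peak of LTBP4, its MITF peaks and its strongest JUNB peaks lie at or near the neighbours NUMBL and SHKBP1. The strongest ATF3 peak of LTBP3 with TGFB1 and its strongest vehicle MITF peak lie in or beside MALAT1. These patterns therefore describe the windows and not the member genes alone. No member was among the 3 nearest of another. PTPRB and PTPRR, and likewise HCRTR1 and TINAGL1, have the same strongest SMAD2/3 value (-log10 p of 20.3 and 40.7).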

How the data were processed

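A375 chromatin was sheared to 200 to 300 bp and precipitated with 10 µg of antibody, per the labels' protocols. Per the submitters' processing notes, the authors used Bowtie, MACS2 (version 2.0) and GRCh38, 1 peak list per library. The deposited fold enrichment is the caller's ratio of pileup to local background, the deposited -log10 p and -log10 q values are the caller's at the summit, and the deposited score was not used. Lists reached down to a -log10 q near that of 0.05. The control used for each list is not given in the sources used here, and the 6 inputs were not analysed here. The design text speaks of technical triplicates, while the labels list 1 library per combination. Samples were grouped by antibody and treatment from their titles.

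The software was scipy 1.17.1, numpy 2.4.6, pandas 2.3.3 and matplotlib 3.10.9 under Python 3.11.15. Identical intervals were counted once, and peaks overlapped from 1 bp. TGFB1-only and vehicle-only peaks overlap none of the same antibody in the other treatment. Pileup and background were solved from fold enrichment and -log10 p with 1 pseudocount each, and not where the -log10 p passed 290. Overlaps and the recovery were tested on simulated data. For a ratio, a TGFB1 peak was set against the strongest vehicle peak it overlaps, at each peak's own summit. Wilson intervals for shares, exact Poisson intervals for pileups and exact binomial ones for ratios are at 95% and cover counting error only, since reads carry no molecular identifiers.

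Named peaks followed a rule: every SMAD2/3 peak of a member, and for each other antibody the strongest in each treatment and the strongest TGFB1-only and vehicle-only one. Up to 5 genes per pathway list with the strongest SMAD2/3 peak and the 3 most similar genes per member, leaving out those within 1 Mb, were named too. One shared MITF peak that the rule names is not reported here. The members and lists were chosen with earlier results of these data known. The pileup ratios, the peaks named for them, the leaving out of the site upstream of LTBP1, and the density without LTBP3 were added after seeing the data. Other gene windows, nearest-gene assignment, equal list lengths, other definitions of overlap and stricter thresholds (fold enrichment from 6 or -log10 q from 5 upwards) were tried as alternatives.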

Additional observations from a re-analysis of the deposited data

How the results depend on the processing

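No paired analysis was possible because each antibody and treatment had 1 library. With 1 library per group the counts rest on depth and threshold, and depth was known only through recovered backgrounds. Of the results on the 4 genes together and the pathway lists, 153 values under an alternative stayed near the one reported and 52 moved. Of the peak counts of single genes, 208 stayed near and 112 moved. Their order of TGFB1 and vehicle was kept in 145 comparisons, became equal in 11, came apart in 2 and turned in 2: SMAD2/3 at LTBP3 had 0 peaks with TGFB1 and 1 with vehicle at equal list lengths, and H3K27ac at LTBP4 had 23 with TGFB1 and 24 with vehicle within 100 kb. Among the genes together and the pathway lists 63 comparisons kept their order, 6 became equal, 4 that had been equal came apart and 0 turned. The cause of a move was not tested except where fewer peaks enter by construction. The label near was wide: the 21 SMAD2/3 peaks with TGFB1 became 14 among peaks nearest to a member, which counted as near. Within 10 kb they became 13, which counted as moved. Some values could not move. Of the 208, 40 came from leaving out the site upstream of LTBP1, which cannot change counts at LTBP2, LTBP3 or LTBP4. Equal list lengths cannot change the shorter list, and a count of 0 cannot fall. The tallies therefore do not measure how stable the results are.

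SMAD2/3 peaks at the members with TGFB1 numbered 10 at a fold enrichment of at least 6, 8 in the gene bodies, 13 within 10 kb, and 3 at equal list lengths, all 3 at LTBP2, against 1 vehicle peak at LTBP3. Without LTBP3 their density was 1.11 per 100 kb with TGFB1 and 0 with vehicle. With vehicle they numbered 0 at a -log10 q of at least 5, at a fold enrichment of at least 6, in the bodies, within 10 kb and among peaks nearest to a member, and 2 within 100 kb. With a reciprocal overlap of 50%, the TGFB1-only share was 37.1% for H3K27ac and 95.9% for ATF3. At equal list lengths it was 34.1% for JUNB. For MITF it was 100% (1 of 1 peak) in the bodies, within 10 kb and among peaks nearest to a member. The TGFB1-only shares of the whole lists were not computed under these settings.

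At the SMAD2/3 sites, H3K27ac overlap in TGFB1 and in vehicle cells was 50.0% in the bodies and 100% at equal list lengths (3 sites). With a reciprocal overlap of 50%, which an acetylated peak much wider than the SMAD2/3 peak cannot meet, it was 0% with TGFB1 and 4.76% with vehicle. It was 90.5% with TGFB1 within 500 bp, and 52.4% with vehicle when the SMAD2/3 summit had to lie inside the peak. JUNB overlap with TGFB1 was 92.3% within 10 kb, 92.9% among peaks nearest to a member and 100% at equal list lengths, where it was 100% with vehicle too. ATF3 with TGFB1 was 28.6% at a reciprocal 50%. ATF3 with vehicle was 0% at a fold enrichment of at least 6 and at equal list lengths. MITF with vehicle was 0% under those 2 settings, at a -log10 q of at least 5 and at a reciprocal 50%.

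Among the storage and activation genes, a -log10 q of at least 5 left 9 with TGFB1-only H3K27ac (19.0% of all genes) and 8 with vehicle-only H3K27ac (15.7%). It left 1 with SMAD2/3 in vehicle cells, 2 with MITF in each treatment and 8 with ATF3 in vehicle cells. Within 50 kb, 8 of 18 had MITF in each treatment (38.3% of all genes with TGFB1 and 39.7% with vehicle). Among the microfibril genes, 10 of 16 had SMAD2/3 with TGFB1 (47.7% of all genes) and 1 with vehicle (3.84%) within 50 kb. In that window 5 had vehicle-only H3K27ac, and 7 had MITF in each treatment. A -log10 q of at least 5 left 6 with ATF3 in vehicle cells. The share of all genes was not computed for SMAD2/3, MITF and ATF3 at that -log10 q, or for vehicle-only H3K27ac within 50 kb. At 1.5 times the list median, a setting chosen after seeing the data, 14.8% of shared H3K27ac peaks and 26.7% of shared JUNB peaks at the members had a raised ratio, against 8.45% and 11.9% of all shared peaks. For JUNB the list share then lay below the members' interval of 14.2 to 44.4%. At 2 times the median the list share of 2.52% lay inside the members' interval (0 of 30, 0 to 11.4%). Leaving out the site 30.5 kb upstream of LTBP1, also chosen after seeing the data, moved none of the 17 values compared. Some of these it could not touch, since the site holds no H3K27ac, MITF or vehicle SMAD2/3 peak.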
